A study of Homo sapiens with 8 samples.

Results

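Ago2-bound RNA was compared with total RNA in KM-H2 cells that carried an empty vector (EV). KM-H2 is a Hodgkin lymphoma cell line. The cells had been transduced with the empty retroviral vector pMSCV-PIG, and the GFP+ cells were sorted. The IP fraction is the RNA pulled down from lysates of these cells with a monoclonal antibody against Ago2, and the total fraction (T) is the cellular RNA of the same population. Of the 8 samples of the series the EV cells account for 4, namely 2 RNAs that were each labelled once with Cy3 and once with Cy5. The other 4 are the same fractions of KM-H2 cells that express a sponge transcript, which captures miR-155 (miR-155-sp), and they appear here only side by side. As each group is 1 RNA from 1 transduced population, no test across samples was possible, and the 2 labellings show technical spread only. The IgG control precipitation of the study was not analysed here. An enrichment in the IP fraction is therefore relative to total RNA and not to an unspecific antibody.

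Ago2 is the protein that holds the miRNA in the RNA-induced silencing complex. The miRNA pairs through its seed, the bases near its 5′ end, with sites that lie mostly in the 3′ part of an mRNA, and Ago2 with its TNRC6 partners then slows translation and starts removal of the poly(A) tail. An mRNA held by many such complexes is enriched when Ago2 is precipitated, while one with few or no sites stays behind. In Hodgkin lymphoma cells miR-155 and the miR-17 family are known as abundant miRNAs.

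The mature sequences of the miRNAs whose known targets are described further on are shown first, as pairing to these letters is what would place a transcript in the IP fraction. They are from RefSeq (GRCh38.p14), 5′ to 3′, with the seed (bases 2 to 8) in capitals. The miR-17 family is shown by 4 members that share 1 seed, from clusters on chromosomes 13 and 7, and let-7a by its copy on chromosome 9.
hsa-miR-155-5p, chr21:25573983-25574006, + strand: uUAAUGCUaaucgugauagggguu
hsa-miR-17-5p, chr13:91350618-91350640, + strand: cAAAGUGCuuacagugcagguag
hsa-miR-20a-5p, chr13:91351072-91351094, + strand: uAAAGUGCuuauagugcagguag
hsa-miR-106b-5p, chr7:100094043-100094063, - strand: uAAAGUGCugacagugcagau
hsa-miR-93-5p, chr7:100093815-100093837, - strand: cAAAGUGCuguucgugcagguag
hsa-let-7a-5p, chr9:94175962-94175983, + strand: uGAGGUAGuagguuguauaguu
MiRNA levels were not measured on these arrays, so which miRNA brought a transcript into the IP fraction cannot be told apart.

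IP/T is the ratio of the IP signal to the total signal, here from the deposited log2 signals averaged over both labellings and over all probes of a gene. There were 8757 named genes, of which 8361 had a probe well above background in all 4 EV channels. Across the array 60.6% of the spots of the Cy3-labelled total and 61.1% of those of the Cy3-labelled IP were well above background, against 42.6% and 43.4% in Cy5. In EV total RNA, 8 of 9 markers of Hodgkin lines were detected in both labellings, among them TNFRSF8 (CD30) and MIR155HG, and IL13 was detected in neither. Of 7 B cell genes that Hodgkin lines often lose 3 were detected in both labellings, and 2, among them CD79B, in neither. Of 7 markers of T cells, monocytes, epithelium and fibroblasts 3 were detected in both labellings (CD14, CSF1R and 1 KRT8 probe) and 3 in neither.

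Bound transcripts were more numerous and stood further from the rest than depleted ones. Of the 8757 genes, 1379 (15.7%) were bound, that is enriched at least 2-fold in the IP fraction, and 835 (9.54%) were depleted, with an IP/T of 0.5 or less. The tail of strong enrichment was long, with 558 genes (6.37%) at 4-fold or more, 192 (2.19%) at 8-fold or more and 60 (0.685%) at 16-fold or more. By contrast 55 genes (0.628%) had an IP/T of 0.25 or less, and 3 (0.0343%) were depleted at least 8-fold. In the deposited values no probe had an EV IP signal that failed to be well above background in both labellings. For EV total RNA 19 probes did. Whether detection cut the depleted tail short was not tested. The median log2 IP/T over all genes was -0.20, with an interquartile range from -0.65 to 0.51. All 1379 bound genes had both IP signals above both total signals, and all 835 depleted genes had both below. The filter of the deposited values fixes this in advance, as it kept labellings of a probe only within 2-fold of each other. Over all genes the IP signals lay above without overlap in 33.8% and below in 49.7%, so for these labellings a lack of overlap alone is no mark of a bound gene. In both orientations taken alone, 1199 bound and 492 depleted genes were past 2-fold. The median SD of log2 IP/T between orientations was 0.20, and 95% of genes stayed under 0.64.

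**Figure D1:**
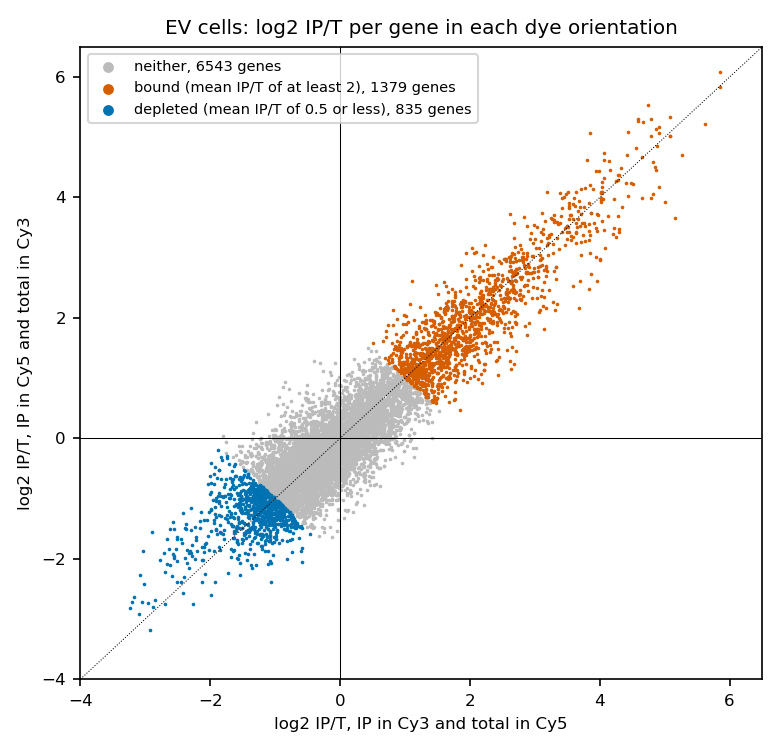
Log2 IP/T of each of 8757 genes in EV cells, with the Cy3-labelled IP on the x axis and the Cy5-labelled IP on the y axis. Each point is a gene, orange for the 1379 bound and blue for the 835 depleted genes, and the dotted line marks equal values. Bound genes reach a log2 IP/T near 6, depleted genes about -3.

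The split between bound and depleted genes depended on the scaling. Bound genes made up 62.3% of the genes past 2-fold in the deposited values. They made up 80.9% with array ratios centred on their median (1689 bound, 400 depleted) and 88.5% with normexp background correction and loess (852 bound, 111 depleted). In these scalings the median of all genes was 0.02 and 0.01 instead of -0.20. Ratios of this kind are relative to all transcripts and give no absolute amount of Ago2-bound RNA, so gene classes are given below by their relative median, the class median of log2 IP/T minus the median over all genes. This takes out the shift of the median but not other effects of normexp, under which many classes lay closer to the median of all genes. Some classes lay further from it. The cytosolic ribosomal protein genes had a relative median of -0.34 instead of -0.15, and the proteasome genes -0.25 instead of -0.20. Under normexp with loess the relative median of the immediate early genes was 1.54 instead of 2.31, that of the BTG and TOB genes 0.96 instead of 2.16 and that of the miR-17 family targets 0.97 instead of 1.80. The ZNF genes had 0.24 instead of 0.55, the ZBTB genes 0.30 instead of 0.98, the Argonaute and processing genes 0.63 instead of 1.38, and the basic helix-loop-helix factors -0.47 instead of -1.51. Levels close to background are a further limit for single genes: 200 of the 1379 bound genes had no probe well above background in all 4 EV channels. For 9 genes, all bound, neither labelling of total RNA was well above background, and their ratio is only a lower limit. None of these 9 is named.

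Among genes measured well above background in all 4 EV channels, the 25 most enriched had a log2 IP/T from 4.32 to 5.21. CREBRF, a regulator of the unfolded protein response, led with an IP/T of 37.0. Its log2 signals were 6.45 and 6.76 in the total fraction (Cy3, Cy5) and 11.84 and 11.79 in the IP fraction. BTG2, an antiproliferative gene that recruits the deadenylation machinery, had an IP/T of 35.4. Its log2 signals were 12.27 and 12.75 in total RNA and 17.50 and 17.81 in the IP, so a transcript that was already abundant was among the brightest of the whole IP fraction. BACH1, a transcriptional repressor of heme and oxidative stress genes and a textbook target of miR-155, had 33.1, with log2 signals of 8.01 and 8.24 in total RNA and 13.03 and 13.32 in the IP. The values of all 3 genes were separated by more than 4 log2 units between fractions and by under 0.5 between labellings of a fraction. DNAJB9, a chaperone of the endoplasmic reticulum, had an IP/T of 31.2. The actin regulators CFL2 and TWF1 had 25.8 and 25.3. BIRC3, an inhibitor of apoptosis that acts in NF-kappaB signalling, also had 25.3. The nuclear receptor RORA closed the list with a log2 IP/T of 4.32, and PLAG1, a zinc finger transcription factor, had 21.6. Of the 25, 10 were numbered zinc finger (ZNF) genes. The remaining members were FAM222B, GPCPD1, TBC1D9, SUCO, GIT2 and PCMTD1, with IP/T from 20.1 to 33.1.

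The 25 most depleted genes had an IP/T from 0.120 to 0.209, a smaller distance from 1 than that of the 25 most bound. OTUD7A, a deubiquitinase, was lowest with log2 signals of 10.58 and 10.36 in total RNA and 7.43 and 7.39 in the IP. Next came CYP4F2, a fatty acid hydroxylase, with an IP/T of 0.123. NEUROG3, a transcription factor of endocrine and neural development, had 13.21 and 13.41 in total RNA against 10.21 and 10.49 in the IP. NEUROG1, POU3F3, SOX1, SOX3, SOX8 and IRX3, further regulators of neural and embryonic development, were in the same list with IP/T from 0.136 to 0.206. SOX3 had log2 signals of 13.87 and 13.94 in total RNA. The sequences of the probes were not used here, and whether they read only the named transcripts was not tested. The list also held the synaptic genes GRIN1 (0.182) and SYN1 (0.193), the creatine kinase CKB (0.157) and the spliceosome component PRPF19 (0.178). Signals in total RNA were high in this list, with a median log2 signal of 12.18 against 9.72 over all genes, and the median in the IP fraction was 9.73. The list held only genes well above background in the IP channels too. A strongly depleted gene passes this only with a high total signal, so the level follows at least in part from the choice of genes. For the 25 most bound genes these medians were 9.0 in total RNA and 13.61 in the IP. In miR-155-sp cells the highest IP/T among the 25 depleted genes was 0.320 and the lowest among the 25 bound genes was 16.8. All 25 bound and all 25 depleted genes stayed past 2-fold under each of the alternative processings that were tried.

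**Figure D2:**
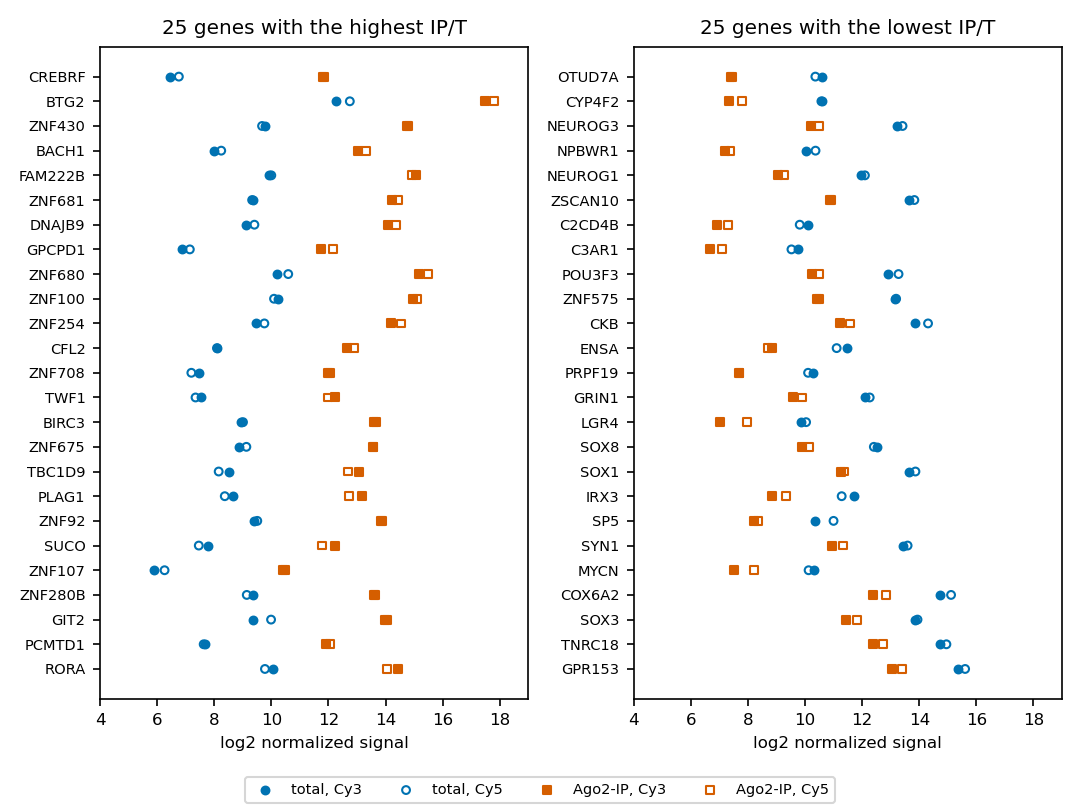
Log2 normalized signal (x axis) of the 25 most bound (left) and the 25 most depleted genes (right) of EV cells, with total RNA as blue circles, Ago2-IP RNA as orange squares, Cy3 filled and Cy5 open. The genes were picked for a wide gap between fractions, and the filter kept labellings within 2-fold. Separation of the fractions and closeness of the labellings therefore follow from the choice of genes and probes.

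Numbered zinc finger genes, most of which encode DNA-binding proteins of the C2H2 type, made up a large share of the strongly bound tail. The 8757 genes included 210 ZNF genes. Of these 73 (34.8%) were bound, against 15.7% of all genes, and 13 (6.19%) were depleted, against 9.54%. Their relative median was 0.55. They were 26 of the 192 genes past 8-fold and 19 of the 60 past 16-fold. The enrichment was uneven along the chromosomes. ZNF genes that stood alone among other protein-coding genes (89 genes) had a median log2 IP/T of 0.25, with 25 bound and 4 past 8-fold. Those in runs of 2 to 4 adjacent ZNF genes (43 genes) had a median of -0.11, with 11 bound and 5 past 8-fold. Those in runs of 5 or more (78 genes) had a median of 0.88, with 37 bound and 17 past 8-fold.

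Within the long runs, 2 clusters held nearly all of the strong values. The longest run of the annotation has 27 ZNF genes from ZNF737 to ZNF681 at chr19:20530276-23758891 (RefSeq, GRCh38.p14), and 15 of them were measured. All 15 were bound, 12 of them past 8-fold, with a median IP/T of 18.3. In single orientations the median log2 IP/T of this run was 4.44 where the IP carried Cy5 and 4.07 where it carried Cy3. The sponge cells gave 4.43, again with all 15 bound. A second run of 9 genes, from ZNF722 to ZNF273 at chr7:63998849-64937316, had 4 measured genes, and all 4 were past 8-fold with a median IP/T of 18.2. The other 18 runs with measured genes had 59 genes between them, of which 18 were bound, 1 past 8-fold and 4 depleted, with a median log2 IP/T of 0.33. Long runs elsewhere on chromosome 19 were not like the first. The run of 24 genes from ZNF627 to ZNF791 had 4 of 7 bound with a median log2 IP/T of 1.22, and the run of 20 genes from ZNF566 to ZNF793 had 1 of 3 bound with a median of 0.01. These runs were singled out after their values had been seen.

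Within the run on chromosome 19, ZNF430 had the highest IP/T (33.2), with log2 signals of 9.79 and 9.67 in total RNA and 14.76 and 14.80 in the IP. ZNF681 had 9.36 and 9.33 against 14.24 and 14.43, and ZNF100 had 10.24 and 10.09 against 14.97 and 15.10. These are differences of about 5 log2 units, reached at a level of total RNA near the median of all genes. The lowest gene of the run was ZNF626 with an IP/T of 6.15 (8.26 and 4.59 in the 2 orientations). ZNF91 and ZNF43 had 16.4 and 13.9, although of the 15 genes ZNF43, ZNF99 and ZNF676 were well above background in no more than 3 of the 4 EV channels. In the run on chromosome 7, ZNF680 led with an IP/T of 30.5, followed by ZNF107 (20.6), ZNF273 (16.1) and ZNF138 (8.36). Probes of 1 gene could differ: the 4 probes of ZNF493 spanned a log2 IP/T from 1.14 to 4.52, and the 3 probes of ZNF107 from 2.56 to 6.11. Genes of these clusters are close relatives in sequence, and probes may take up signal from a neighbour. The sequences of the probes were not used here, and shared signal was not tested.

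**Figure D3:**
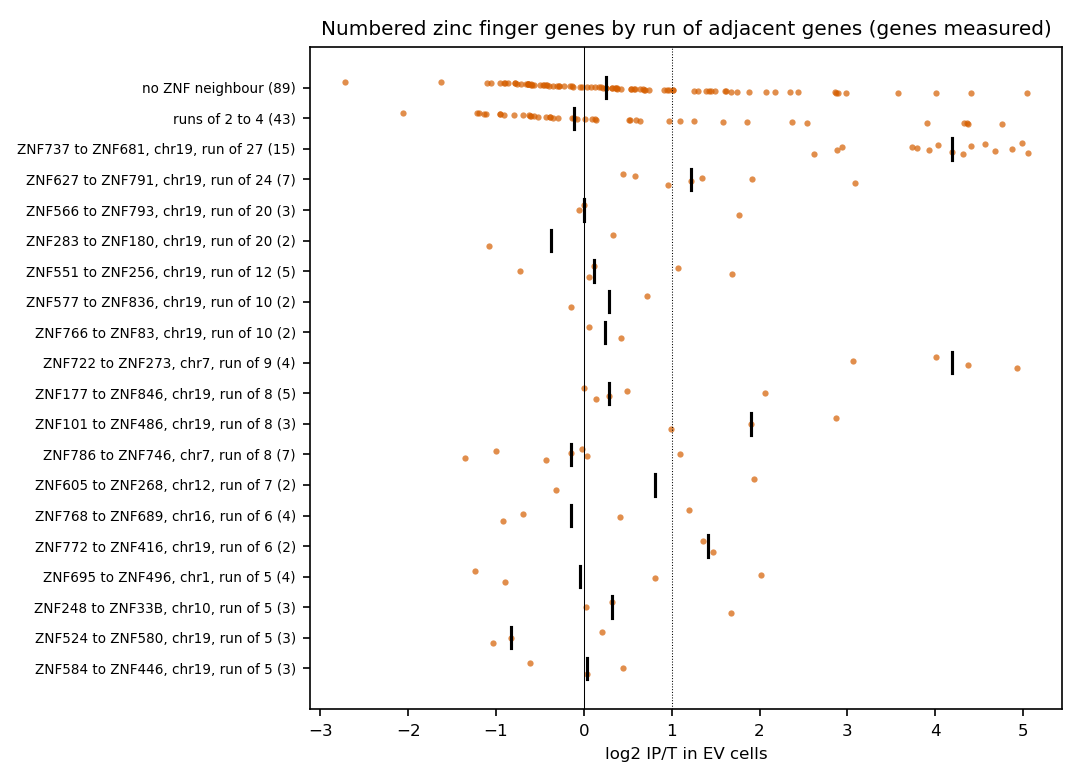
Log2 IP/T in EV cells (x axis) of the numbered zinc finger genes, by the run of adjacent ZNF genes in which they lie, for genes with no ZNF neighbour, runs of 2 to 4, and each longer run with 2 or more genes measured. Points are genes and black bars medians; the dotted line marks an IP/T of 2. The run of 27 genes on chromosome 19 and the run of 9 on chromosome 7 have medians near 4.2, all others lie under 2.

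Not all zinc finger genes were enriched. Of the ZNF genes bright in all 4 channels the lowest were ZNF575 (IP/T 0.152), ZNF467 (0.240) and ZNF512 (0.325), none of them in a run of 5 or more. The ZBTB genes, zinc finger factors with a BTB domain that includes many repressors, had 10 of 22 bound, none depleted and a relative median of 0.98. ZBTB4 had the highest value with 15.9, and its log2 signals were 8.79 and 9.04 in total RNA and 13.06 and 12.76 in the IP. The lowest was ZBTB16 with 0.579, bright in no more than 3 channels, followed by ZBTB17 with 0.665. The KLF factors, a related zinc finger family, had 4 of 9 bound (KLF12, KLF11, KLF10 and KLF9, with IP/T from 2.03 to 3.75) and 1 depleted. That gene was KLF16 with 0.257, and its total signals of 14.70 and 14.82 were the highest of the family.

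Known targets of abundant miRNAs are described next as lists, beside the 15.7% of all genes that were bound. The lists were drawn up with earlier results of these data known, so their shares of bound genes are no independent support. Of the 25 genes listed as textbook targets of miR-155, 17 were measured, of which 9 (52.9%) were bound and none was depleted, with a relative median of 1.29. After BACH1 came SOCS1, a suppressor of cytokine signalling, with an IP/T of 13.3 and log2 signals of 11.62 and 11.95 in total RNA and 15.54 and 15.51 in the IP. The transcription factor MYB had 11.6 (log2 signals 12.80 and 12.74 against 16.38 and 16.23). Both were abundant in total RNA. TAB2, an adaptor of NF-kappaB signalling, had 6.73, JARID2, a partner of Polycomb repressive complex 2, had 6.48, and CEBPB had 4.36. ZNF652 and PICALM were bound with 3.07 and 2.13. RICTOR, a subunit of mTOR complex 2, had 17.0, but was well above background in no more than 3 of the 4 channels. The rest of the list was below 2. IKBKE and HIVEP2 each had 1.79, FOXO3 had 1.05 and SMAD2 had 0.855. INPP5D, the phosphatase SHIP1, had 0.513, with log2 signals of 10.38 and 10.52 in total RNA and 9.52 and 9.45 in the IP.

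The list for the miR-17 family showed the highest share of bound genes among the target lists, with 13 of 16 measured genes (81.2%) bound, 1 depleted and a relative median of 1.80. BCL2L11, which encodes the proapoptotic protein BIM, had an IP/T of 11.2 with log2 signals of 9.28 and 9.0 in total RNA and 12.71 and 12.55 in the IP. E2F3, an activator of S phase genes, had 7.92. The pocket proteins RB1 and RBL2, which restrain the E2F factors, had 4.34 and 2.23, and the cell cycle inhibitor CDKN1A had 2.75. TNFAIP3 and MAP3K5 had 5.59 and 5.41. Family members differed, as E2F1 had 1.65 and E2F2 only 0.420. The log2 signals of E2F2 were 8.29 and 8.69 in total RNA and 7.13 and 7.35 in the IP.

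Of 18 measured let-7 targets 10 (55.6%) were bound and 3 were depleted, with a relative median of 1.45. DICER1, the enzyme that cuts miRNA precursors, had 14.5, with log2 signals of 8.19 and 8.73 in total RNA and 12.36 and 12.28 in the IP. FAS, the death receptor, had 13.9 and the chromatin factor ARID3B had 9.65. MYC had 7.17 (log2 signals 11.21 and 10.95 against 14.17 and 13.67). Its relative MYCN was at the opposite end with 0.194, with 10.31 and 10.12 in total RNA against 7.50 and 8.20 in the IP. The RAS genes NRAS and HRAS had 1.11 and 0.399. Of the IGF2BP family, IGF2BP3 had 7.58, though 4.48 and 12.8 in the 2 orientations, IGF2BP1 had 1.66 and IGF2BP2 had 0.542. In miR-155-sp cells the relative medians of the miR-155, miR-17 family and let-7 lists were 1.66, 1.94 and 1.55. The median of the miR-155 list is that of PICALM, which had 2.71 in these cells, while 12 of the 17 members had a lower IP/T there than in EV cells, among them JARID2 with 3.74 and BACH1 with 29.4. In the miR-17 family and let-7 lists 8 of 16 and 7 of 18 members were lower. These differences between the cells were not tested. E2F2 stands in both of the latter lists, and ZBTB4, SOCS1, MYC and others also stand in classes described elsewhere. The lists hold targets known from other cells and were not derived from sites in these transcripts.

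**Figure D4:**
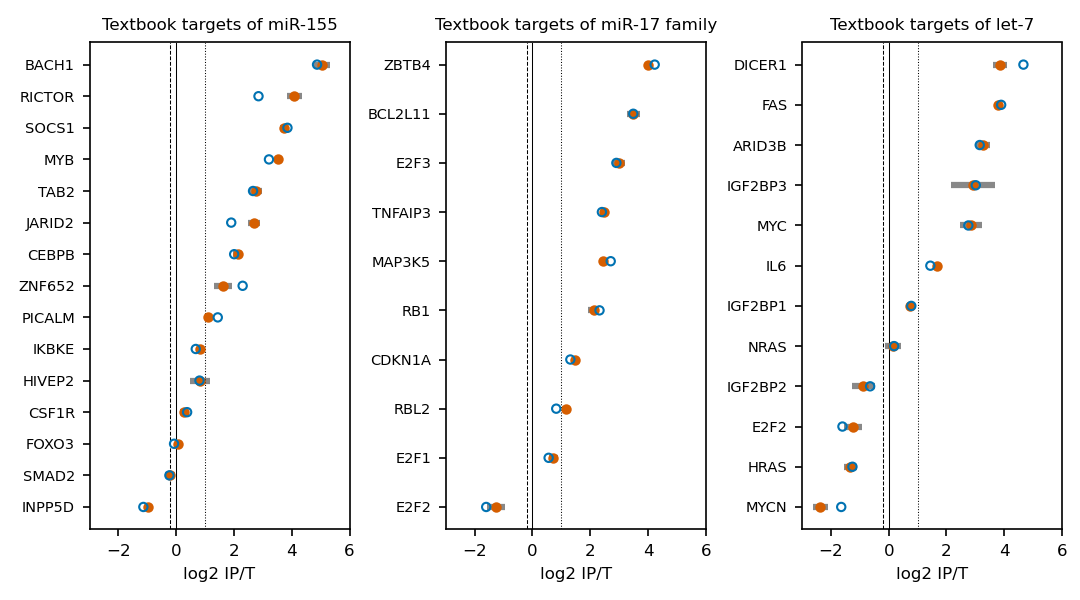
Log2 IP/T (x axis) of the genes named in the text from 3 lists of textbook miRNA targets. Orange points are EV cells, grey bars span the EV dye orientations and open blue circles are miR-155-sp cells; lines mark IP/T of 1 (solid), IP/T of 2 (dotted) and the median of all genes (dashed). Over all measured members of the lists, bound genes number 9 of 17 for miR-155, 13 of 16 for the miR-17 family and 10 of 18 for let-7.

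Some genes of the miRNA pathway itself were among the bound transcripts. Of 11 measured genes for Argonaute, TNRC6 and miRNA processing proteins, 6 (54.5%) were bound, against 15.7% of all genes. None was depleted, and the relative median was 1.38. TNRC6A, the scaffold between Argonaute and the deadenylases, had an IP/T of 16.7, with log2 signals of 9.06 and 9.11 in total RNA and 13.15 in both labellings of the IP. DICER1 followed, as given above. DROSHA, the nuclear processing enzyme, had 4.41, with 12.63 and 12.51 against 14.72 and 14.70. AGO4 had 3.38, well above background in no more than 3 channels, TNRC6B had 2.45 and TARBP2, the partner of DICER1, had 2.26. AGO1, AGO2 and AGO3 did not reach 2, with 1.79, 1.31 and 1.30. The 2 orientations of AGO2 were 0.992 and 1.73, and its IP and total signals overlapped. The lowest gene was PRKRA with 0.584. Of 40 genes for deadenylation, decapping and decay, which act downstream of Ago2, 10 were bound and 3 depleted with a relative median of 0.24. DCP2, the decapping enzyme, had 4.97 and the deadenylase subunit CNOT6L had 3.32, while CNOT3 had 0.459 and UPF3A, of nonsense-mediated decay, had 0.452.

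Immediate early genes and BTG and TOB genes had the highest class medians in the deposited values. Under normexp with loess the let-7 and miR-17 family lists (relative medians 0.98 and 0.97) were slightly above the BTG and TOB genes (0.96). Of 18 AP-1 and immediate early genes on the array 9 were measured. Of these 6 were bound and none depleted, with a relative median of 2.31. ZFP36, which encodes the mRNA decay factor tristetraprolin, had an IP/T of 13.0 with log2 signals of 9.93 and 9.69 in total RNA and 13.53 and 13.48 in the IP. IER3 had 7.90, the AP-1 subunit FOSL1 had 7.59, NR4A1 had 4.33 and JUNB had 2.49. JUN and IER2 did not share this, with 0.947 and 1.40. IER5 had 0.510, but its 2 probes gave a log2 IP/T of -2.66 and 0.71 and do not agree. Of the 5 measured BTG and TOB genes, antiproliferative proteins that bind the CCR4-NOT deadenylase, 4 were bound. After BTG2 these were BTG3 (5.51), TOB2 (3.88) and TOB1 (2.26), while BTG1 had 1.12.

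Feedback inhibitors of kinase signalling followed. Of 14 SOCS, SPRED and Sprouty genes on the array 5 were measured, with a relative median of 1.55. Of these 3 were bound, namely SOCS5 (31.8, well above background in no more than 3 channels), SOCS1 and CISH (2.55). Of 14 DUSP genes, phosphatases that include those of MAP kinases, 6 were bound and 1 depleted, with a relative median of 0.63. DUSP2 had an IP/T of 10.4, with log2 signals of 12.23 and 12.35 in total RNA and 15.51 and 15.84 in the IP. DUSP5 and DUSP1 had 6.99 and 5.35, and DUSP15 was depleted with 0.407. Of 5 SMAD genes only the inhibitory SMAD7 was bound (4.10). Of 12 genes for NF-kappaB subunits and inhibitors 3 were bound and none depleted, with a relative median of 0.49. The coactivator BCL3 had 11.5 (log2 signals 13.42 and 13.40 against 17.04 and 16.82), the deubiquitinase TNFAIP3, also in the miR-17 family list, had 5.59 and NFKBIA had 2.20. The subunits REL, RELB, NFKB2 and NFKB1 had 1.57, 1.04, 0.990 and 0.739, and the kinase subunits and other inhibitors CHUK, NFKBIE, IKBKB, IKBKG and NFKBIB had 1.5, 1.27, 1.18, 1.12 and 0.846.

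Among 37 cyclins, cyclin-dependent kinases and their inhibitors, 13 (35.1%) were bound and 2 depleted, with a relative median of 0.60. CCNJ had an IP/T of 19.5. CDKN1B, the inhibitor p27, had 11.2, with log2 signals of 10.49 and 10.43 in total RNA and 13.90 and 13.98 in the IP. CCNE1, the cyclin of the G1/S transition, had 7.73 with 11.74 and 11.88 against 14.76 in both labellings. The depleted genes were CDK10 (0.466) and CDKN2A (0.441), the inhibitor p16. Other cell cycle classes had medians near the bulk but smaller shares of bound genes than the 15.7% of all genes. Of 39 genes of replication licensing and forks 2 (5.1%) were bound, GINS2 with 3.78 and RFC3 with 2.45. Of 30 mitotic kinesin and centromere genes 1 (3.3%) was, CENPQ with 6.33. The relative medians were -0.03 and -0.05.

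Genes of the ubiquitin system varied from family to family, and differences between families were not tested. The RING finger (RNF) genes, mostly E3 ligases, had 18 of 50 bound and 7 depleted (relative median 0.52), with RNF213 at an IP/T of 0.315. The Kelch-like adaptors of cullin ligases had 7 of 15 bound and none depleted (0.73), with KLHL42 at 3.56. Of 36 F-box genes, substrate receptors of the SCF ligase, 8 were bound and 3 depleted (0.33). FBXW7, which targets MYC and CCNE1 for degradation, had 7.86, with log2 signals of 8.74 in both labellings of total RNA and 11.83 and 11.60 in the IP. The USP deubiquitinases had 6 of 28 bound and none depleted (0.71). The UBE2 conjugating enzymes had 3 of 29 bound and 4 depleted (0.01), with UBE2W at 11.7. The 45 proteasome genes had 2 bound (PSMB1 with 2.99 and the assembly factor PSMG2 with 2.72) and 2 depleted, with a relative median of -0.20. TRIM ligases were at the bulk, with 3 of 28 bound, 3 depleted and a relative median of 0.02. Of 33 RAB small GTPases, which direct vesicle traffic, 7 were bound and 2 depleted (0.57), led by RAB12 with 10.8.

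**Figure D5:**
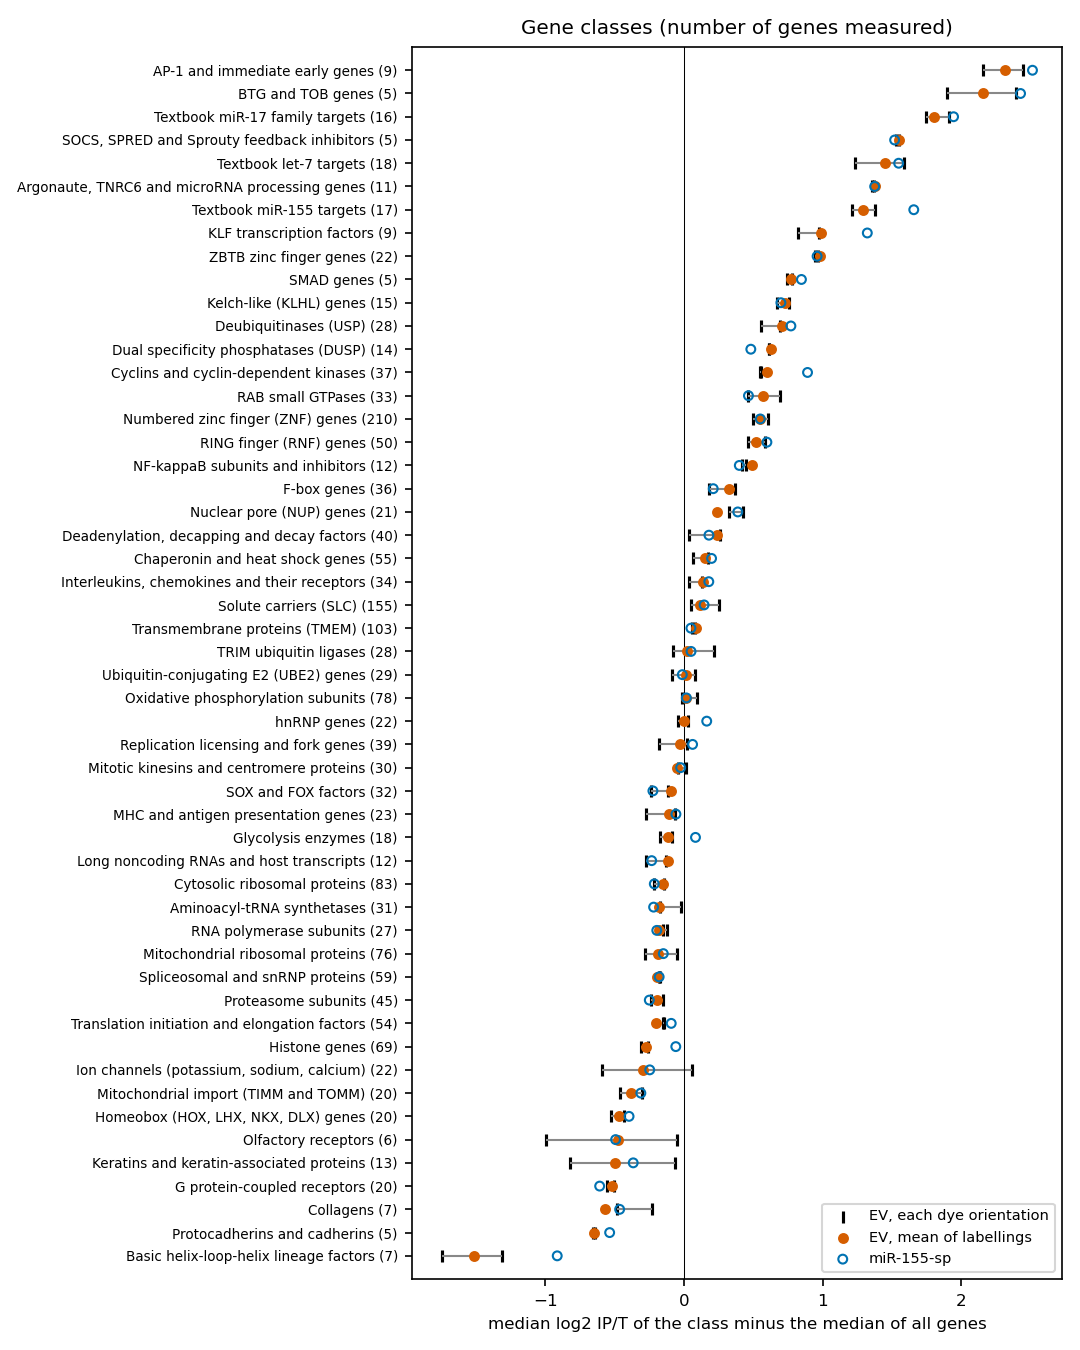
Median log2 IP/T of each of 52 gene classes minus the median over all genes (x axis), with the number of genes measured in brackets. Orange points are EV cells, black ticks the EV dye orientations and open blue circles miR-155-sp cells. Immediate early genes, BTG and TOB genes and the miRNA target lists stand at the top, basic helix-loop-helix lineage factors at the bottom.

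Most classes of the basic machinery of the cell held fewer bound genes than the 15.7% of all genes. The aminoacyl-tRNA synthetases did not, with 5 of 31 (16.1%) bound and 3 depleted (relative median -0.18). None of 59 spliceosomal and snRNP genes, none of 22 hnRNP genes, none of 23 MHC and antigen presentation genes and none of 20 mitochondrial import (TIMM and TOMM) genes was bound. The closest was B2M, the light chain of MHC class I, with a log2 IP/T of 0.997. Of 76 mitochondrial ribosomal protein genes 3 were bound and 11 depleted (relative median -0.19). Of 54 translation factors 3 were bound and 3 depleted (-0.20), and of 78 subunits of oxidative phosphorylation 5 and 3 (0.01). Of 69 histone genes 2 were bound, H3-5 with an IP/T of 3.11 and H3-3B, which encodes the replication-independent variant H3.3, with 2.31, and 12 were depleted (-0.28). Histone genes and ribosomal protein genes are multicopy families, so probes may take up signal from relatives and the values of single members are uncertain. Of 83 cytosolic ribosomal protein genes 7 were bound and 7 depleted, with a relative median of -0.15. RPLP0 had an IP/T of 4.65 with log2 signals of 16.71 and 16.54 in total RNA and 18.87 and 18.81 in the IP. RPL12, from the same stalk region of the ribosome, had 0.396, with 17.14 and 17.06 against 15.72 and 15.81. The mitochondrial ribosomal protein gene MRPL20 had 6.07 (13.91 and 13.88 against 16.51 and 16.48) while MRPL9 had 0.311. EIF4A2, a helicase of translation initiation, had 5.11 and MARS1, the methionyl-tRNA synthetase, had 4.72. GAPDH, often taken as a reference transcript, had 0.580.

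Signalling genes of immune cells, transporters and chaperones had members on both sides. Of 34 interleukins, chemokines and their receptors 6 were bound and 5 depleted, with a relative median of 0.14. CCR7, the homing receptor of lymphocytes, had an IP/T of 3.91, with log2 signals of 12.83 and 12.65 in total RNA and 14.78 and 14.63 in the IP. The cytokine IL6, also in the let-7 list, had 3.16 and the chemokine CXCL10 had 2.25. CCL17, the chemokine TARC that Hodgkin lymphoma cells are known to secrete, was depleted with 0.398, with 9.22 and 8.85 in the IP, both below both total signals. Of the solute carriers 29 (18.7%) were bound and 9 depleted, with a relative median of 0.12, close to the shares of all genes. The thiamine transporter SLC19A2 had 7.55 and the sulfate transporter SLC26A1 had 0.253. Of 55 chaperonin and heat shock genes 7 were bound and 5 depleted (0.15), and the highest and the lowest values both came from the DNAJ cochaperones, DNAJB9 as given above and DNAJC15 with 0.348. Of 21 nuclear pore genes 2 were bound, NUP35 with 3.38 and NUP42 with 3.20, and 1 was depleted (0.24). Among 27 RNA polymerase subunits 1 was bound, POLR3G with 2.79, and 5 were depleted (-0.18), with POLR2E at 0.375.

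Several classes of lineage factors and cell surface receptors had low medians in the deposited values, although most of the 835 depleted genes belonged to none of them. Few members of these classes passed the detection filter: measured were 7 of 26 basic helix-loop-helix factors on the array, 20 of 79 homeobox genes, 20 of 120 receptors, 5 of 72 cadherins, 6 of 110 olfactory receptors, 13 of 81 keratins and 22 of 129 ion channels. Whether the probes of these members read only the named transcripts was not tested. Of the 7 measured basic helix-loop-helix lineage factors, regulators of neural and muscle fate, 5 were depleted, with a relative median of -1.51. Besides NEUROG3 and NEUROG1 these were BHLHE23 (IP/T 0.232), NEUROD2 (0.305) and MYOD1 (0.441), the regulator of muscle. NEUROG2 went the other way with 6.02, at low total signals of 7.03 and 6.75 and well above background in no more than 3 channels. Of 20 homeobox genes 6 were depleted and 4 bound (-0.47). IRX3 had 11.72 and 11.28 in total RNA and 8.83 and 9.33 in the IP, while HOXC8 had an IP/T of 7.71 and HOXA5 of 3.41. Of 32 SOX and FOX factors 11 were depleted and 6 bound (-0.09), so that this class parted to both sides, with FOXP2 at 10.9 and SOX8 at 0.183. Of 20 G protein-coupled receptors 8 were depleted and 3 bound (-0.52). NPBWR1, a neuropeptide receptor, had 0.134 and GPR153 had 0.208 despite log2 signals of 15.34 and 15.61 in total RNA. Of 5 cadherin genes 2 were depleted (-0.65), with CDH24 at 0.234. Under normexp with loess the homeobox genes, G protein-coupled receptors and cadherins had relative medians of -0.15, -0.22 and -0.28. Histone genes and cytosolic ribosomal protein genes were lower there, with -0.31 and -0.34, so the order of the low classes depended on the scaling. In the deposited values olfactory receptors, keratins and ion channels also had relative medians below 0 (-0.47, -0.50 and -0.29), but these differed by orientation. In the orientation with Cy5-labelled IP they were -0.05, -0.07 and 0.05, and in the opposite one -0.99, -0.82 and -0.59, so the size of the difference, and for ion channels its direction, changed with the dyes.

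Long noncoding RNAs were few. Of the 16 genes of this biotype in RefSeq 3 were bound and 2 depleted, and of a list of 12 long noncoding RNAs and host transcripts 3 were bound and 1 depleted. H19 had an IP/T of 5.19 at low total signals (6.65 and 6.98), MCM3AP-AS1 had 3.18 and SNHG1, a host transcript of small nucleolar RNAs, had 2.23. MCM3AP-AS1 lies antisense to MCM3AP, and which strand its probe reads was not checked here, so its value is uncertain. The nuclear RNA MALAT1 had 0.817 and GAS5 had 0.787. MIR155HG, the host transcript from which miR-155 is cut, was depleted with 0.426, with log2 signals of 9.67 and 9.73 in total RNA and 8.38 and 8.55 in the IP. Transcribed pseudogenes had a median log2 IP/T of -0.54 over 46 genes.

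Bound transcripts tended to come from long genes and to be dim in total RNA. Genes were divided into 5 equal bins by their genomic span in RefSeq. In the bin of the shortest, 184 of 1752 genes were bound and 269 (15.4%) depleted. Of the 1752 longest, 378 (21.6%) were bound and 119 (6.8%) depleted. The median log2 IP/T went from -0.39 over -0.29, -0.21 and -0.06 to -0.02 along the bins. The order held in both orientations and in the sponge cells. By total signal, 33.5% of genes were bound in the dimmest of 5 bins, then 15.6%, 11.9%, 10.0% and 7.6% in the brightest. The total signal is also the denominator of the ratio, and its part in this order was not tested. With the dim probes left out, the difference in median between the dimmest and the brightest bin was 0.54 instead of 0.66, and that between the longest and shortest genes 0.29 instead of 0.37. Under normexp with loess these differences were 0.31 and 0.22.

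Most of the bound genes were shared with the sponge cells, which are a second precipitation from the same line. Of the 1379 bound genes in EV cells, 1291 (93.6%) were also bound in miR-155-sp cells, where 1455 genes were bound, so these were 88.7% of the sponge set. Of the 835 depleted genes 614 (73.5%) were depleted in both, or 64.3% of the 955 in sponge cells. Among bound genes 1 lay on the other side of an IP/T of 1 in the sponge cells, among depleted genes 0. Class medians changed by at most 0.58, in the basic helix-loop-helix factors, and 49 of 52 classes stayed on the same side of the all-gene median. In EV cells 45 of 52 did so in both orientations.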

How the data were processed

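Total and Ago2-IP RNA of EV-transduced KM-H2 cells had been hybridized to 2-color 44k Agilent human arrays with dye swap, 2 of the 4 arrays of the series. Spot intensities, as deposited, came from Agilent's Feature Extraction software (10.7.3.1 per the file headers, 10.5.1.1 per the submitters' notes). Both samples of an array were deposited with the same scanner output, and only the channel of each sample's own RNA was used. The deposited log2 values of 16065 probes were made by the authors with quantile normalization and with filters on detection and on 2-fold agreement between labellings. They differed from processed signals quantile-normalized here by a median of 0.00055 (log2), so orientations were taken from their columns.

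Log2 IP/T is the mean IP minus the mean total value of a probe, averaged over the probes of a gene. Probes were named through identifiers in the RefSeq gene table of GRCh38.p14, matching 23958 of 41000 array probes and 11851 of the 16065. The arrays were designed on an older build, so no probe coordinates are given. With 1 RNA per group no p-value was computed, and the number of arrays limits the precision. Named were the 25 highest and 25 lowest genes well above background in all 4 EV channels and on the same side of 0 in both orientations, the 3 highest and 3 lowest of each of 52 classes (all members up to 12 genes), and all genes of the short lists. Genes of the zinc finger runs and prefix families, PKN2 and the cell type markers were named besides, all but the markers after their values were seen. Members and lists were chosen with earlier results of these data known. Runs of ZNF genes were counted along protein-coding genes of RefSeq.

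Alternatives were own filtering of the scanner values, median-centred array ratios, normexp (offset 50) with loess in limma 3.58.1 (R 4.3.3), bright probes only, each labelling or orientation alone, and the highest probe of a gene. Other steps used Python 3.11.15, numpy 2.4.6 and pandas 2.3.3. The code was tested on simulated data. Some genes of the lists count in the totals but are not reported here.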

Additional observations from a re-analysis of the deposited data

Results flagged for a closer look

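XPO5, the exporter of miRNA precursors, was slightly above 1 in both orientations of EV cells (IP/T 1.12) and slightly below 1 in both orientations of the sponge cells (0.965), a difference in log2 IP/T of -0.21. The difference was not tested and is close to the median SD between orientations of 0.20.

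Outside the deposited matrix, 638 of 24921 probes were well above background in all 4 EV channels, and 66 of them were past 2-fold in both orientations, 35 bound and 31 depleted. They enter no value of the report.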

How the results depend on the processing

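All 267 named genes past 2-fold stayed on their side of an IP/T of 1 under every alternative that kept them, and 170 of them were still past 2-fold with normexp and loess. Normexp gave 852 bound and 111 depleted genes, 1 class with a median IP/T of at least 2 instead of 7, and a difference in median log2 IP/T of 0.22 between longest and shortest and of 0.31 between dimmest and brightest genes. Median-centred ratios gave 400 depleted genes. With bright probes only, 4 classes had a median IP/T of at least 2, and those differences were 0.29 and 0.54. With IP in Cy5 alone the latter was 0.75, and the relative median of the ion channels turned to 0.054. Leaving out one labelling gave 1374 to 1426 bound and 855 to 987 depleted genes. The cause of these shifts was not tested. The other alternatives for the counts stayed within 1.5-fold. IP and total RNA were paired within each array through the orientations, but as each group is 1 RNA no paired test across samples was possible. Dim total signals limit single ratios: 200 bound genes had no probe well above background in all 4 EV channels. Among genes with several probes the median range of log2 IP/T over probes was 0.32, and in 77 genes 1 probe was past 2-fold with another on the other side of 1, the widest being PKN2 with 7.05 over 3 probes. Of these 77, 7 were bound.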

Other observations

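Genes were also grouped by the letters of their symbols, which gave 98 families of at least 10 genes. These groups were looked at after the values were known, and letters do not always mean relatedness. The NR family, mostly nuclear receptors, had the highest median log2 IP/T (1.15), with 7 of 11 genes bound and none depleted. Among them were the clock repressor NR1D2 with an IP/T of 5.84, the glucocorticoid receptor NR3C1 with 2.13 and the oxysterol receptor NR1H2 with 2.22, while its relative NR1H3 had 0.584. The 13 BCL genes had a median of 0.94 with 6 bound. BCL11A, a transcription factor of B cell development, had 7.04, while the antiapoptotic genes BCL2, BCL2A1 and BCL2L1 had 1.40, 1.53 and 0.954. Of the 10 PIK3 genes, mostly subunits of phosphoinositide 3-kinases, 4 were bound, among them the catalytic subunit PIK3CA (2.79) and the regulatory subunit PIK3R1 (2.10).

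At the other end the HSD genes, hydroxysteroid dehydrogenases, had a median of -0.97 with 5 of 10 depleted and none bound, from HSD17B6 at 0.412 to HSD17B11 at 1.14. The 11 tetraspanin (TSPAN) genes had a median of -0.64 with 2 depleted and none bound, TSPAN10 at 0.424 and TSPAN1 at 0.474.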
